A study of Mus musculus with 12 samples.

Results

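The mitosis and spindle checkpoint genes are 39 genes whose products carry a cell from the entry into mitosis to its division. They were listed by name from the biology of mitosis, with no measured value in the rule but with earlier results of these data known. All 39 were found by symbol among the 24421 genes counted. All 39 also passed the filter of at least 1 CPM (a count scaled to the library size) in at least 3 libraries, as did 11638 genes in all. They were followed in RNA sequencing libraries of B16F10 cells, a mouse melanoma line, with 3 replicates in each of 4 groups. Control cells received the solvent dimethyl sulfoxide (DMSO). DAC (decitabine, a deoxycytidine analog that blocks DNA methyltransferases) was given at 25 nM for 72 h, and SFN (sulforaphane, an isothiocyanate of cruciferous vegetables) was given alone for 48 h. DAC+SFN cells received 25 nM DAC for 72 h and 5 µM SFN during the last 48 h. For SFN alone the labels state 5 nM, whereas the study's methods describe 5 µM for both groups. Which of the doses was used cannot be settled from the values. All groups come from 1 cell line, and no labels tell separate clones apart.

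Entry into mitosis is driven by the kinase Cdk1 with cyclins A and B, and the mRNAs of most genes used in mitosis build up in G2 phase and are lost in G1, largely through the MuvB complex with B-Myb and FoxM1, which acts at promoters that carry a CHR element and CCAAT boxes. Until every kinetochore is held by spindle microtubules, the spindle checkpoint restrains the anaphase-promoting complex (APC/C). Once it is silenced, securin and cyclin B are destroyed, the sister chromatids part, and a midzone and a contractile ring divide the cell. In tumour cultures the level of these mRNAs tracks how many cells cycle. In bulk libraries such as these, fewer cells in G2 and mitosis and less mRNA of these genes per cell cannot be told apart. By flow cytometry the paper found that the G2/M share of cells did not differ significantly between treatments. It counted fewer viable cells with each agent than in control, and fewest with both. How these measures relate to the mRNA levels was not tested.

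Between 15880957 and 27291436 reads per library were assigned to genes, so that the members held between 235 and 18391 counts each in a library. The 7 melanocyte markers examined (Mitf, Sox10, Tyr, Tyrp1, Dct, Pmel and Mlana) all passed the filter, summing to 21417 to 30155 CPM. None of the 4 keratinocyte or 3 endothelial markers passed. Of 6 fibroblast markers, 3 passed (Col1a1, Col1a2 and Pdgfra), and their list summed to 20.2 to 321 CPM in control and 29.1 to 252 CPM with DAC+SFN. Of 4 leukocyte markers, Cd68 and Lyz2 passed, and the list summed to 4.19 to 5.94 CPM in control, 5.38 to 8.49 CPM with DAC, 7.62 to 13.8 CPM with SFN and 10.9 to 16.3 CPM with DAC+SFN, while Ptprc held at most 2 counts and Cd3e at most 1 in any library. The part of these markers in the results was not tested.

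In control cells the members differed widely in level. Per kilobase of exon, which allows levels to be compared between genes, the highest was Top2a, the topoisomerase that untangles replicated chromosomes, at 88.1 CPM per kilobase. Ccna2 at 67.6, Cdca3 at 65.1, Ccnb2 at 64.9 and Plk1 at 62.3 CPM per kilobase followed. The lowest were Cdc25c, the phosphatase that activates Cdk1, at 5.67 CPM per kilobase, and Cenpf at 7.27, and the median of the 39 was 31.6. Together the members held 0.642% ± 0.0239 of a control library (SD, n = 3). This share was 0.573% ± 0.0363 in DAC libraries, 0.604% ± 0.0167 in SFN libraries and 0.514% ± 0.0405 in those of DAC+SFN. The DAC+SFN mean was the lowest of the 4 group means for 36 of the 39 members, and the control mean was the highest for 30.

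**Figure D1:**
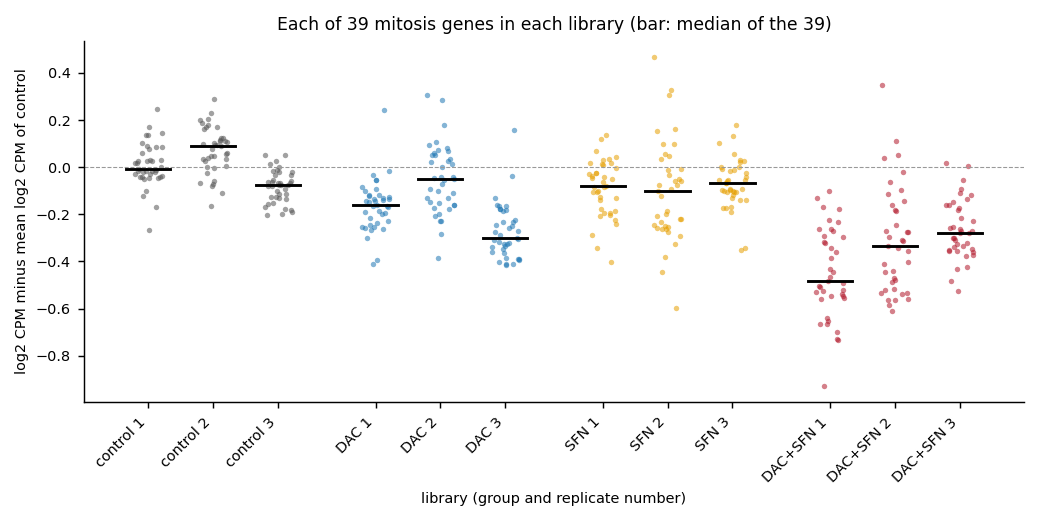
Each point is 1 of the 39 genes in 1 library, as log2 CPM minus the mean log2 CPM of the 3 control libraries (vertical axis), by library (horizontal axis). Black bars are the medians of the 39 genes, which lie at -0.48, -0.33 and -0.28 in the 3 DAC+SFN libraries and between -0.07 and 0.09 in the controls.

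The combination was compared with control to ask what both agents together changed. With DAC+SFN, 33 of the 39 members were lower than in control at an adjusted p under 0.05 (edgeR's quasi-likelihood test with the replicate number as a block, Benjamini-Hochberg adjustment over all genes tested), and 0 were higher. Of all genes tested, 14.7% were lower by the same call, and the 39 were listed with earlier results of these data known. The falls were modest. The median log2 fold change of the members was -0.36, against 0.01 over all genes tested, the values ran from -0.62 for Cdc25c to 0.08 for Anln, and 38 of 39 were below 0. None of the 39 passed the study's second criterion of a fold change over 2, which 2.66% of all genes passed. In 31 members the 3 DAC+SFN libraries all lay below the 3 control libraries, as in 14.3% of all genes tested. Within the replicate numbers, the median log2 difference of the members from control was -0.50 in replicate 1, -0.39 in replicate 2 and -0.18 in replicate 3, and 35 members were lower in all 3, as were 26.1% of all genes. With the replicate block left out, 20 members were called lower (1201 of 11638 genes in all, in either direction), and with replicate 2 left out of every group 20 were called (1762 of 11547 genes), all of them among the 33. The call held for 18 members in each of 16 alternative settings.

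**Figure D2:**
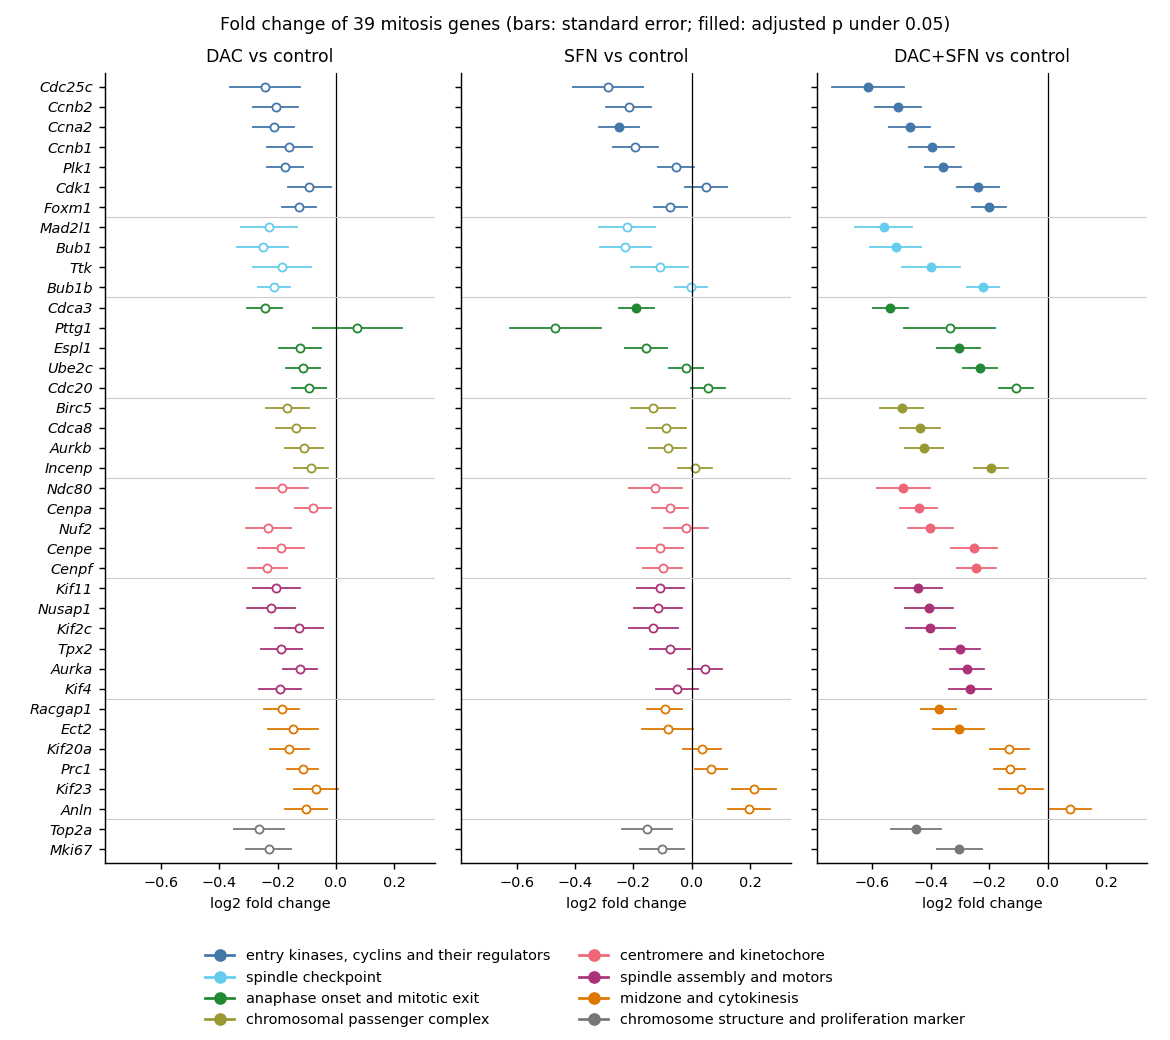
Log2 fold change (horizontal axis) of each of the 39 genes (vertical axis, in italics) with DAC, SFN and DAC+SFN against control, with bars of 1 standard error and filled points at an adjusted p under 0.05. Colours mark the 8 roles. With DAC+SFN, 33 points are filled, all to the left of 0, against 0 with DAC and 2 with SFN.

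All 7 regulators of mitotic entry were lower with DAC+SFN, with a median log2 fold change of -0.40. Cdc25c was measured at 25.5, 31.4 and 26.8 CPM in control, 23.9, 24.1 and 22.7 CPM with DAC, 21.9, 20.4 and 26.7 CPM with SFN, and 14.6, 18.5 and 21.9 CPM with DAC+SFN. Its DAC+SFN libraries lay below all controls and those of DAC and overlapped those of SFN, and the log2 fold change from control was -0.62 ± 0.12 (SE, adjusted p = 0.00174), the largest fall among the members. Ccnb2, a cyclin that activates Cdk1 in G2 and mitosis, stood at 98.1, 106 and 93.7 CPM in control, 86.8, 89.6 and 81.9 CPM with DAC, 81.3, 82.8 and 92.8 CPM with SFN, and 62.4, 69.1 and 77.8 CPM with DAC+SFN. No DAC+SFN library reached any of the other 9, and the log2 fold change was -0.51 ± 0.08 (adjusted p = 0.000234). Ccna2, the cyclin of S phase and G2, was measured at 276, 287 and 265 CPM in control, 236, 255 and 223 CPM with DAC, 242, 237 and 218 CPM with SFN, and 189, 190.2 and 217 CPM with DAC+SFN. The DAC+SFN libraries were again the lowest 3 of the 12, with a log2 fold change of -0.47 ± 0.07 (adjusted p = 0.000176). Ccnb1, the main partner of Cdk1 in mitosis, gave 209, 206 and 200.04 CPM in control, 182, 199 and 169.7 CPM with DAC, 173, 167 and 197 CPM with SFN, and 143, 155 and 169.9 CPM with DAC+SFN. It was lower than in every control (-0.40 ± 0.08, adjusted p = 0.00147), with DAC and SFN libraries reaching into the DAC+SFN range. Plk1, the polo-like kinase of mitotic entry and spindle formation, stood at 127, 159.7 and 124 CPM in control, 102, 143 and 119.5 CPM with DAC, 125, 142 and 128 CPM with SFN, and 97.5, 122 and 101 CPM with DAC+SFN. Replicate 2 was the highest in each group, and DAC+SFN lay below control in each replicate (-0.36 ± 0.06, adjusted p = 0.000675). The falls were smaller for Cdk1 itself (-0.24 ± 0.07, adjusted p = 0.0213) and for Foxm1, a transcription factor of G2 and M genes (-0.20 ± 0.06, adjusted p = 0.0168). The call of Cdk1 was lost without DAC+SFN replicate 1 (adjusted p = 0.144), control replicate 1 (0.0713) or control replicate 2 (0.0842), and that of Foxm1 without DAC+SFN replicate 2 (0.0568) or control replicate 2 (0.086).

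The 4 genes of the spindle checkpoint were all lower with DAC+SFN, with a median log2 fold change of -0.46. Mad2l1, whose product binds and holds back Cdc20 until kinetochores are attached, was measured at 145, 146 and 121 CPM in control, 124, 125 and 103 CPM with DAC, 119.8, 109 and 124 CPM with SFN, and 82.5, 94.2 and 102 CPM with DAC+SFN. Its 3 DAC+SFN libraries were the lowest of the 12, and its log2 fold change of -0.56 ± 0.10 (adjusted p = 0.000638) was second to that of Cdc25c. Bub1, a checkpoint kinase at the kinetochore, stood at 184, 149 and 171 CPM in control, 163, 128 and 131 CPM with DAC, 145, 129 and 156 CPM with SFN, and 107, 109.6 and 134 CPM with DAC+SFN. All DAC+SFN libraries lay below all controls (-0.52 ± 0.09, adjusted p = 0.000509) and overlapped those of the single agents. Bub1b, which encodes BubR1 of the checkpoint complex, was at 147, 161 and 143 CPM in control, 128, 143 and 119.8 CPM with DAC, 146, 155 and 149 CPM with SFN, and 125, 132 and 129 CPM with DAC+SFN. Its DAC+SFN and DAC libraries overlapped, and both groups lay below the controls (-0.22 ± 0.05 with DAC+SFN, adjusted p = 0.0073). Ttk, the kinase Mps1 that starts the checkpoint signal, had a log2 fold change of -0.40 ± 0.10 (adjusted p = 0.00742), with its call lost without DAC+SFN replicate 1 (0.0579).

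The chromosomal passenger complex corrects faulty attachments of chromosomes to the spindle, and its 4 subunits were all lower with DAC+SFN. Birc5 (survivin) was measured at 156, 163 and 154 CPM in control, 140.3, 147 and 134 CPM with DAC, 143, 133 and 156 CPM with SFN, and 99.4, 112 and 123 CPM with DAC+SFN. The DAC+SFN libraries were below the other 9, and the log2 fold change was -0.50 ± 0.07 (adjusted p = 0.000209). Aurkb, the kinase of the complex, stood at 138, 139 and 129.9 CPM in control, 126, 127 and 124 CPM with DAC, 132, 117 and 135 CPM with SFN, and 95.6, 102 and 106 CPM with DAC+SFN. It too was lowest in the DAC+SFN libraries (-0.42 ± 0.06, adjusted p = 0.00024). Cdca8 (borealin) gave 85.0, 89.2 and 88.2 CPM in control, 70.9, 90.5 and 78.1 CPM with DAC, 82.4, 82.9 and 81.5 CPM with SFN, and 59.3, 72.6 and 62.5 CPM with DAC+SFN. Its DAC+SFN range overlapped that of DAC in 1 library and stayed below control and SFN (-0.44 ± 0.07, adjusted p = 0.000284). Incenp, the scaffold of the complex, had the smallest fall of the 4 (-0.19 ± 0.06, adjusted p = 0.021). Its libraries overlapped with control, and the call was lost without control replicate 2 (0.131) or DAC+SFN replicate 2 (0.0675).

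The 5 centromere and kinetochore genes were all lower as well, with a median of -0.40. Cenpa, the histone H3 variant that marks the centromere, was measured at 63.0, 76.7 and 73.5 CPM in control, 59.0, 74.3 and 68.9 CPM with DAC, 61.5, 68.0 and 72.4 CPM with SFN, and 43.6, 57.1 and 56.7 CPM with DAC+SFN. Each DAC+SFN library was below all other 9 libraries (-0.44 ± 0.06, adjusted p = 0.000131). Ndc80, of the complex that binds microtubules at the kinetochore, stood at 65.6, 70.3 and 66.5 CPM in control, 66.7, 60.3 and 51.4 CPM with DAC, 61.6, 57.9 and 66.3 CPM with SFN, and 45.9, 45.8 and 52.0 CPM with DAC+SFN, and its partner Nuf2 gave 94.8, 87.8 and 75.5 CPM in control, 78.0, 76.6 and 65.4 CPM with DAC, 88.3, 82.3 and 83.3 CPM with SFN, and 60.9, 66.9 and 66.8 CPM with DAC+SFN. For both, all DAC+SFN libraries lay below all control and SFN libraries, with log2 fold changes from control of -0.49 ± 0.09 and -0.40 ± 0.08 (adjusted p = 0.000998 and 0.00127), while DAC replicate 3 lay within the DAC+SFN range. Cenpf was at 123, 107 and 107 CPM in control, 102, 95.7 and 88.7 CPM with DAC, 113, 98.5 and 102 CPM with SFN, and 104, 80.9 and 99.5 CPM with DAC+SFN. The DAC and DAC+SFN means of Cenpf differed by under 1 SD, and the log2 fold change from control was -0.24 ± 0.07 with DAC+SFN (adjusted p = 0.0126). Cenpe, a kinetochore motor, had a like fall (-0.25 ± 0.08, adjusted p = 0.0239). The call of Cenpf was lost without control replicate 1 (0.0519), control replicate 2 (0.0544) or DAC+SFN replicate 2 (0.074). That of Cenpe was lost without control replicate 1 (0.0812), control replicate 2 (0.0645), DAC+SFN replicate 1 or DAC+SFN replicate 2 (0.115).

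**Figure D3:**
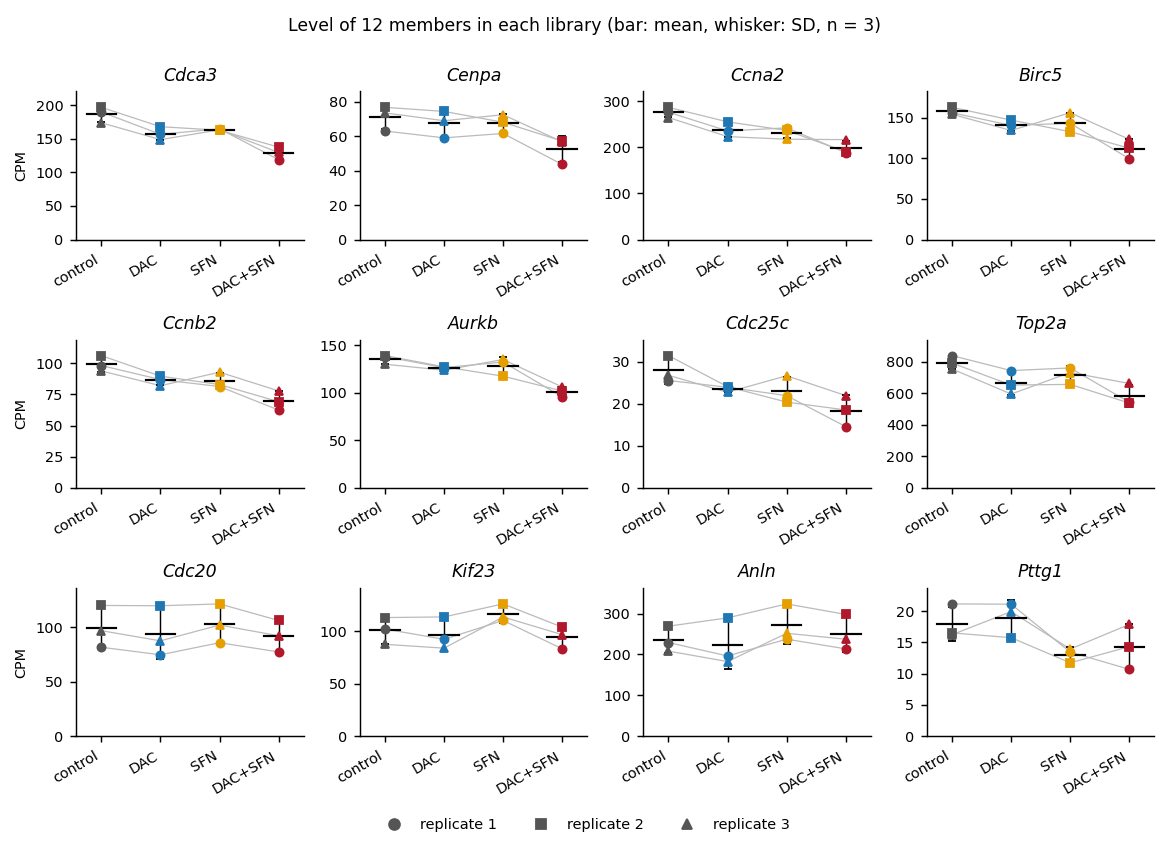
Level in CPM (vertical axis, from 0) of 12 members by group (horizontal axis), with 1 marker per library, its shape giving the replicate number, grey lines joining libraries of the same number, and black bars and whiskers for the mean and SD of 3 libraries. In Cdca3, Cenpa, Ccna2, Birc5, Ccnb2 and Aurkb the 3 DAC+SFN libraries lie below the other 9, whereas in Cdc20, Kif23 and Anln control and DAC+SFN overlap and replicate 2 is the highest of each group.

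The 6 genes of spindle assembly were all lower with DAC+SFN, with a median of -0.35. Kif11 (Eg5), the motor that pushes the spindle poles apart, had a log2 fold change of -0.44 ± 0.08 (adjusted p = 0.000998), and the microtubule-binding protein Nusap1 one of -0.41 ± 0.08 (adjusted p = 0.00209). Kif2c, which takes microtubules apart at the centromere, was measured at 68.7, 77.3 and 61.9 CPM in control, 62.5, 70.2 and 58.2 CPM with DAC, 64.1, 64.3 and 61.2 CPM with SFN, and 48.5, 50.7 and 57.7 CPM with DAC+SFN. Its DAC+SFN libraries were below the other 9 (-0.40 ± 0.08, adjusted p = 0.00238). Aurka, the spindle pole kinase, stood at 113, 124 and 108 CPM in control, 100.3, 122 and 96.9 CPM with DAC, 118, 123 and 115 CPM with SFN, and 89.8, 108 and 88.7 CPM with DAC+SFN. Its fall of -0.28 ± 0.06 (adjusted p = 0.00241) was beside one of -0.30 ± 0.07 (adjusted p = 0.00476) in Tpx2, its activator on the spindle. Kif4, a motor bound to chromosomes, had -0.27 ± 0.07 (adjusted p = 0.0121). Its call was lost without control replicate 1 (0.065), control replicate 2 (0.0609), DAC+SFN replicate 1 (0.0734) or DAC+SFN replicate 2 (0.0675). Top2a, the member with the highest CPM, gave 838, 791 and 754 CPM in control, 743, 652 and 595 CPM with DAC, 760.1, 656 and 731 CPM with SFN, and 543, 537 and 662 CPM with DAC+SFN. All DAC+SFN libraries lay below all controls (-0.45 ± 0.09, adjusted p = 0.00128) and overlapped those of DAC and SFN. Mki67, the proliferation marker Ki-67, had a log2 fold change of -0.30 ± 0.08 (adjusted p = 0.00808).

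Of the 5 genes of anaphase onset and exit, 3 were lower. Cdca3, which helps to turn over the Cdk1 inhibitor Wee1, had the smallest adjusted p of all members (-0.54 ± 0.06, adjusted p = 2.04e-05). It was measured at 189.7, 197 and 174 CPM in control, 156, 168 and 149 CPM with DAC, 165, 162 and 163 CPM with SFN, and 119, 137 and 129 CPM with DAC+SFN. The DAC+SFN libraries were the lowest, and the single-agent libraries lay between them and the controls. Espl1 (separase, which cuts cohesin) and Ube2c (an E2 enzyme of the APC/C) had log2 fold changes of -0.30 ± 0.07 and -0.23 ± 0.06 (adjusted p = 0.00558 and 0.0071). Cdc20, the activator of the APC/C, was at 81.8, 120.3 and 97.1 CPM in control, 74.9, 120.0 and 87.7 CPM with DAC, 86.0, 122 and 102 CPM with SFN, and 77.5, 106 and 92.4 CPM with DAC+SFN. Its groups overlapped, and its log2 fold change of -0.11 ± 0.06 did not pass (adjusted p = 0.172). Pttg1 (securin) was at 21.2, 16.5 and 16.2 CPM in control, 21.1, 15.8 and 19.9 CPM with DAC, 13.5, 11.7 and 13.9 CPM with SFN, and 10.7, 14.3 and 17.9 CPM with DAC+SFN. Here the DAC+SFN libraries spread from the lowest of the 12 into the control range, and -0.33 ± 0.16 did not pass (adjusted p = 0.115), although it did without control replicate 3 (0.0379) or DAC+SFN replicate 3 (0.0185).

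Of the 6 genes of the midzone and cytokinesis, 2 were lower and 4 did not pass. Racgap1, a subunit of centralspindlin, was measured at 259, 279 and 248 CPM in control, 230.1, 252 and 209.5 CPM with DAC, 247, 245 and 243 CPM with SFN, and 192, 206 and 208 CPM with DAC+SFN. Its DAC+SFN libraries were below all others (-0.37 ± 0.06, adjusted p = 0.000381). Ect2, the exchange factor that activates RhoA at the cleavage furrow, had -0.31 ± 0.09 (adjusted p = 0.015). This call was lost without control replicate 1 (0.0792), control replicate 2 (0.0628), DAC+SFN replicate 1 (0.101) or DAC+SFN replicate 2 (0.0658). Kif23, the motor subunit of centralspindlin and partner of Racgap1, stood at 102, 113 and 87.6 CPM in control, 92.4, 114 and 84.0 CPM with DAC, 110.4, 126 and 114 CPM with SFN, and 83.4, 104 and 96.8 CPM with DAC+SFN. Its DAC+SFN and control libraries overlapped (-0.09 ± 0.08, adjusted p = 0.39). Anln (anillin), the scaffold of the contractile ring, gave 229, 269 and 208 CPM in control, 196, 289.6 and 183 CPM with DAC, 237, 324 and 252 CPM with SFN, and 214, 298 and 237 CPM with DAC+SFN. It was the member with a fitted value above 0 (0.08 ± 0.07, adjusted p = 0.438). Prc1, which bundles midzone microtubules, was at 184, 202 and 172 CPM in control, 169, 189 and 158 CPM with DAC, 188, 208 and 188 CPM with SFN, and 158, 183 and 169 CPM with DAC+SFN. Kif20a, a midzone motor, was at 149, 167 and 128 CPM in control, 123, 157 and 119 CPM with DAC, 142, 163 and 147 CPM with SFN, and 122, 151 and 131 CPM with DAC+SFN. In both the control and DAC+SFN libraries overlapped, and the log2 fold changes of -0.13 ± 0.05 and -0.13 ± 0.07 did not pass (adjusted p = 0.079 and 0.142). Without DAC+SFN replicate 3 Prc1 passed (0.0242), and without control replicate 3 Kif20a did (0.0405). The strand setting of the counting is not given in the sources used here. Of the exon bases of Kif20a, 29.3% lie on the opposite strand of exons of Cdc23. This share is 22.8% for Ube2c and Tnnc2, 15.1% for Kif4 and Pdzd11, 12.7% for Cdc25c and Gm3550 and 12.5% for Ccna2 and Exosc9. Tnnc2 held at most 4 counts in a library, and no count is given for Gm3550. Reads of these pairs may be shared.

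The promoters are shown because most members moved together, and the motifs were chosen with earlier results of these data known. Windows of 300 bases, from 250 before to 50 after the gene start, were read from RefSeq (GRCm38.p6) by symbol for 32 members. Without an entry were Ccna2, Cdc25c, Foxm1, Aurkb, Incenp, Tpx2 and Kif20a. The CHR core, TTTGAA on either strand, stood in 24 of the 32 windows (75.0%), against 18.1% of all 27025 genes of the table and 11.3% of the 8966 genes tested that had a window. CCAAT on either strand, the NF-Y box, stood in 24 (75.0%, against 37.9% of all genes). Both were in 21 windows (65.6%, against 7.12%), and a CHR with 2 or more CCAAT in 14 (43.8%, against 2.19%). The E2F-like word GCGGGAA on either strand was in 0 of the 32 windows (4.66% of all genes and 8.98% of the genes tested that had a window). The CHR nearest the downstream end began at position -103 to 41 from the start, with a median of 5.5, and a CHR and the nearest CCAAT began a median of 25 bases apart. Of the 5 uncalled members with a window 4 held a CHR (Cdc20, Kif23, Prc1 and Anln), as did 20 of the 27 called, while 2 or more CCAAT stood in 1 of the 5 and 15 of the 27, and a CHR with 2 or more CCAAT in 1 and 13. No difference between these sets was tested. Among called members, Mad2l1, Birc5, Nuf2 and Nusap1 had neither word in their window. A match is a run of letters and not a measured site.

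The windows of the 4 members with the largest falls among those that held a CHR and at least 2 CCAAT follow, from Ccnb2 at chr9:70421505-70421804 (minus strand), Cdca3 at chr6:124829926-124830225 (plus strand), Cenpa at chr5:30666636-30666935 (plus strand) and Top2a at chr11:99024140-99024439 (minus strand), all GRCm38.p6. Each is written from 5′ to 3′ on the strand of the gene, and capitals mark the CHR core (TTTGAA, or TTCAAA on the other strand) and the CCAAT word (ATTGG on the other strand).
Ccnb2: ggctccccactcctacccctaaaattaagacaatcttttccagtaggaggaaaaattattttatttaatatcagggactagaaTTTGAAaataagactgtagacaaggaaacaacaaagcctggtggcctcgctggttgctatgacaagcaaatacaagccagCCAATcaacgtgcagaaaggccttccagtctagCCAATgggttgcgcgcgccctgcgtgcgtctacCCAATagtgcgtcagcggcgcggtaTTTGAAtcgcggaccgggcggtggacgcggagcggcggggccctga
Cdca3: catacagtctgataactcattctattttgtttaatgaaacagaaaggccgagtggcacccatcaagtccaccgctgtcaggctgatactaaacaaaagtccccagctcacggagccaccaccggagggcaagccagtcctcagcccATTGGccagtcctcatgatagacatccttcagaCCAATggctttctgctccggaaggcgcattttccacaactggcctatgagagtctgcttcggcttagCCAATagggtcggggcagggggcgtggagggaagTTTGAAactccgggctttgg
Cenpa: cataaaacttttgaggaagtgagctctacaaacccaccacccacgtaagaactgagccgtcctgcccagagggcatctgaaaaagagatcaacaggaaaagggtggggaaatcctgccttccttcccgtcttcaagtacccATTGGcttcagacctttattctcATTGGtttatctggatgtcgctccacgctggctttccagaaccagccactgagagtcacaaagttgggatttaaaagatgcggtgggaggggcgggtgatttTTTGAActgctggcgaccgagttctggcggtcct
Top2a: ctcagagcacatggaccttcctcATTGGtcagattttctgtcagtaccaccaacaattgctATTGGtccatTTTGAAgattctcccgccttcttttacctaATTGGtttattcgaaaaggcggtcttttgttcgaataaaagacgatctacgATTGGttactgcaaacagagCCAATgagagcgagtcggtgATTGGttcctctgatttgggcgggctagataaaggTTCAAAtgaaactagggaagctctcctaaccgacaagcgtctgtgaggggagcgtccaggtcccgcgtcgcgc
In Ccnb2 and Cdca3 a CHR lies downstream of 3 CCAAT words, and Ccnb2 has a second CHR upstream of them. In Cenpa 2 CCAAT words, both on the other strand, lie upstream of a single CHR, and Top2a holds 6 CCAAT words and 2 CHR.

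SFN alone was compared with control to ask what this agent changed on its own. Of the 39 members 2 were lower (Ccna2 and Cdca3) and 0 were higher, against 5.65% of all genes lower and 8.27% higher. The median log2 fold change was -0.09, and 31 members were below 0. Within the replicate numbers the median difference was -0.09 in replicate 1 and -0.18 in replicate 2, and in replicate 3 it was 0.02, with 19 of the 39 lower. The fitted median was -0.06 without SFN replicate 2. Ccna2, given in every library above, had a log2 fold change of -0.25 ± 0.07 (adjusted p = 0.0261), and its 3 SFN libraries lay below the 3 controls. Cdca3 had -0.19 ± 0.06 (adjusted p = 0.0454), again with no overlap. Pttg1 had the lowest value (-0.47 ± 0.16), with all SFN libraries below all controls, and did not pass (adjusted p = 0.0584). The SFN libraries lay below the controls in 8 of the 39 members and in 1156 of all 11638 genes. The highest values were those of Kif23 (0.21 ± 0.07, adjusted p = 0.0732) and Anln (0.20 ± 0.07, adjusted p = 0.0836), both of cytokinesis and both higher than control in all 3 replicates. Neither passed. Ccnb2 had -0.22 ± 0.08 (adjusted p = 0.0759). The count of 2 was 0 without control replicate 1, control replicate 2, SFN replicate 2 or SFN replicate 3, 1 without SFN replicate 1, 4 without control replicate 3, and 0 without the replicate block.

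DAC alone was compared with control in the same way, and 0 of the 39 members passed, against 0.180% of all genes (21 of 11638, all higher). At an unadjusted p under 0.05 there were 20 members, all lower, against 4.04% of all genes lower at that level, and 1 passed by DESeq2's Wald test, which called 83 genes in all. The median log2 fold change was -0.17, 38 members were below 0, and 33 were lower in all 3 replicates, as were 20.7% of all genes. The 3 with the smallest p were Cdca3 (-0.24 ± 0.06, adjusted p = 0.129), Bub1b (-0.21 ± 0.05, adjusted p = 0.156) and Cenpf (-0.24 ± 0.07, adjusted p = 0.2). For each of these the 3 DAC libraries lay below the 3 controls, as in 13 of the 39 members and 505 of all 11638 genes. Pttg1 was the member with a value above 0 (0.07 ± 0.15, adjusted p = 0.91). In a fit of the DAC and control libraries alone, 20 members passed, with 663 of 11396 genes called in all. Of the members, 31 had a lower mean with DAC than with SFN, a difference that was not tested.

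The combination was then set against each agent, which asks what the second agent changed in cells that already had the first. Against DAC, 13 members were lower with DAC+SFN and 0 were higher, while 6.60% of all genes were lower, and the median was -0.18. Among these Cenpa had the lowest value, -0.36 ± 0.06 (adjusted p = 0.00163). Of the 4 passenger genes 3 passed, namely Birc5 (-0.33, adjusted p = 0.0085), Aurkb (-0.31, adjusted p = 0.00502) and Cdca8 (-0.30, adjusted p = 0.0092). Cdca3 had -0.29 (adjusted p = 0.00481). Of the cyclins, Ccnb2 (-0.31), Ccna2 (-0.26) and Ccnb1 (-0.24) passed, with adjusted p of 0.0163, 0.0206 and 0.0493. Of the checkpoint, Mad2l1 (-0.33) and Bub1 (-0.27) did, with adjusted p of 0.0316 and 0.049. Ndc80 (-0.31), Kif2c (-0.28) and Racgap1 (-0.19) completed the 13, with adjusted p of 0.0327, 0.0373 and 0.0473. In replicate 3 the median difference of the 39 was 0.02, against -0.32 in replicate 1 and -0.28 in replicate 2. The count was 6 without DAC replicate 1, 4 without DAC replicate 2, 20 without DAC replicate 3, 3, 5 and 23 without DAC+SFN replicates 1, 2 and 3, and 0 without the replicate block.

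Against SFN, 9 members were lower with DAC+SFN and 0 were higher, while 0.670% of all genes were lower, and the median was -0.28. These 9 were Nuf2 (-0.38 ± 0.08, adjusted p = 0.0293), Birc5 (-0.37 ± 0.07, adjusted p = 0.031), Cenpa (-0.37 ± 0.06, adjusted p = 0.0223), Cdca8 (-0.35 ± 0.07, adjusted p = 0.0278), Cdca3 (-0.35 ± 0.06, adjusted p = 0.0223), Aurkb (-0.34 ± 0.06, adjusted p = 0.0272), Aurka (-0.32 ± 0.06, adjusted p = 0.0247), Plk1 (-0.30 ± 0.06, adjusted p = 0.0318) and Racgap1 (-0.28 ± 0.06, adjusted p = 0.0381). In all 9 the 3 DAC+SFN libraries lay below the 3 SFN libraries, as in 25 of the 39 members and 798 of all 11638 genes. The 9 were picked by adjusted p in this same comparison. At an unadjusted p under 0.05 there were 35 members, all lower, against 8.46% of all genes lower at that level, and 37 were lower in all 3 replicates, as were 22.2% of all genes. As labelled, the SFN doses of these groups are not the same, whereas the study's methods describe the same dose for both. The count was 0 without SFN replicate 1, SFN replicate 3 or DAC+SFN replicate 1, 4 without DAC+SFN replicate 2, 29 without DAC+SFN replicate 3, and 0 without the replicate block. In a fit of these groups alone it was 33, among 1267 of 11460 genes called, and with DESeq2 20, among 404 of 11638.

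Whether the changes of the agents add on the log2 scale was tested as an interaction. None of the 39 members passed, and 0% of all genes did. At an unadjusted p under 0.05 there were 5 members, all with a combination lower than the sum of the single agents, against 2.73% of all genes at that level and in that direction, and by DESeq2 0 passed. They were Cenpa (-0.29 ± 0.09), Aurkb (-0.23 ± 0.09), Kif23 (-0.23 ± 0.11), Cdca8 (-0.21 ± 0.10) and Aurka (-0.20 ± 0.08), with an adjusted p of 0.847 for Cenpa, Aurkb and Aurka and of 0.85 for Kif23 and Cdca8. The median of the members was -0.09, and 34 were below 0. With 1 library left out this median ran from -0.15 (without DAC+SFN replicate 3) to -0.02 (without control replicate 3). It also moved by over 1.5 times without DAC replicate 2 (-0.05), DAC replicate 3 (-0.14), SFN replicate 2 (-0.13), SFN replicate 3 (-0.05) or DAC+SFN replicate 1 (-0.03). This test takes the SFN doses as equal, which the study's methods describe and the labels do not give.

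The replicate number carried part of the variation, in the members as in other genes. In the same fit 12 of the 39 members differed between replicates, a share no higher than the 33.9% of all genes. Replicate 2 was set against the mean of replicates 1 and 3, and 14 members were higher in it (16.9% of all genes) and 2 lower (15.6% of all genes). The highest were Anln (0.43 ± 0.05, adjusted p = 3.82e-05) and Cdc20 (0.43 ± 0.04, adjusted p = 6.86e-06), then Plk1 (0.30 ± 0.05), Kif20a (0.27 ± 0.05), Ube2c (0.27 ± 0.04) and Kif23 (0.25 ± 0.06). The lower ones were Bub1 (-0.20 ± 0.07, adjusted p = 0.0273) and Cenpf (-0.14 ± 0.05, adjusted p = 0.0495). In 11 members replicate 2 was the highest library in each of the 4 groups, as in 13.7% of all genes, among them Anln, Kif23, Prc1, Kif20a and Cdc20, which are 5 of the 6 that did not pass with DAC+SFN. Across the 39 members, the log2 fold change with DAC+SFN and the replicate 2 difference had a Pearson r of 0.59 and a Spearman rho of 0.55. With SFN these were 0.68 and 0.71. The points share the same 12 libraries, so these are descriptions. The labels name no batch. The study's methods describe a correction for batch in the edgeR test without naming the batches, and whether these are the replicate numbers was not tested.

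**Figure D4:**
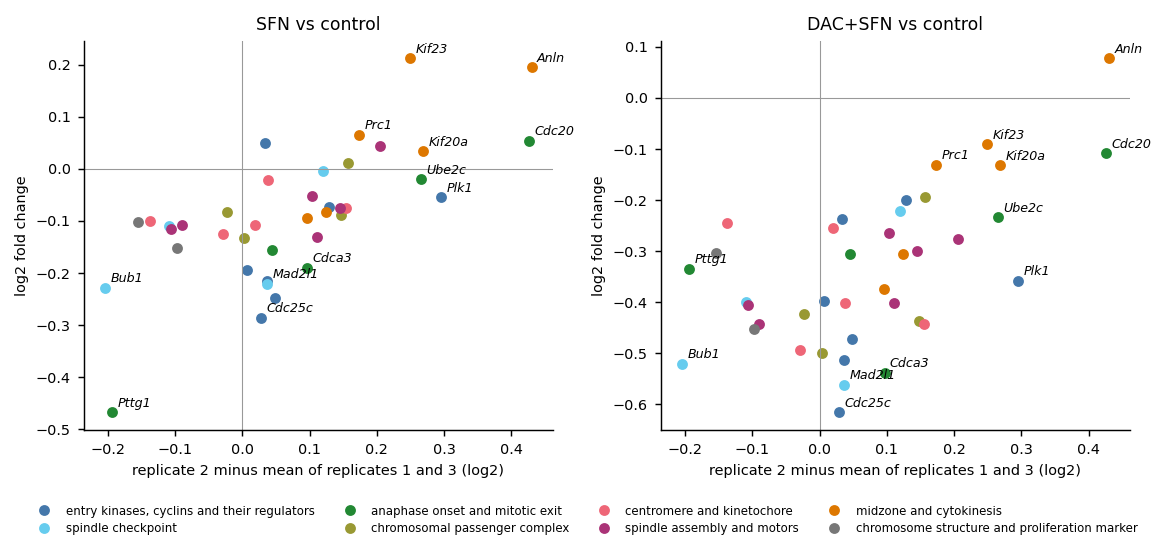
Log2 fold change against control (vertical axis) with SFN, left, and DAC+SFN, right, and the log2 difference of replicate 2 from the mean of replicates 1 and 3 (horizontal axis), with 1 point per gene and colours for the 8 roles. Anln, at 0.43 on the horizontal axis, lies above 0 in both panels.

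Other genes of the pathway were counted on lists drawn up by function, with earlier results of these data known, for DAC+SFN against control. Of all 11638 genes tested, 1705 (14.7%) were lower and 1978 higher. Of 36 other checkpoint, centromere and kinetochore genes 27 were lower and 0 higher, with a median of -0.36. Ska1, of the complex that holds kinetochores to microtubules, was measured at 18.1, 18.4 and 17.4 CPM in control and 9.61, 8.91 and 12.1 CPM with DAC+SFN. It fell by more than any member (-0.82 ± 0.12, adjusted p = 0.000172), and Cenpn, a reader of centromeric chromatin, had -0.54 ± 0.08 (adjusted p = 0.00015). Of 26 other spindle, motor and cytokinesis genes 16 were lower and 2 higher. Knstrn, a kinetochore and spindle protein, had -0.48 ± 0.06 (adjusted p = 8.34e-05), whereas Psrc1, which binds spindle microtubules, was higher (0.48 ± 0.07, adjusted p = 0.000129), as was Ckap2 (0.29 ± 0.08, adjusted p = 0.0127). Ckap2 is named because it is the second of the higher genes, a choice made after its value was seen. Of 17 other entry and exit regulators 8 were lower and 1 higher. Cdc25b, a further Cdk1-activating phosphatase, fell (-0.61 ± 0.06, adjusted p = 1.38e-05), and Gtse1, a microtubule-binding protein of G2 and M phase that restrains p53, was higher (0.58 ± 0.08, adjusted p = 9.59e-05).

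Of 20 condensin and cohesin genes 13 were lower and 0 higher, among them Smc4 of condensin (-0.55 ± 0.09, adjusted p = 0.000519) and Smc3 of cohesin (-0.44 ± 0.07, adjusted p = 0.000338). Of 20 genes of DNA replication and S phase 17 were lower and 1 higher. Mcm7 of the replicative helicase had -0.49 ± 0.07 (adjusted p = 0.000132), Pcna, the sliding clamp, -0.43 ± 0.07 (adjusted p = 0.00041) and Uhrf1, which brings Dnmt1 to replicated DNA, -0.38 ± 0.07 (adjusted p = 0.000748). The higher gene was Ccne1, cyclin E, at 0.18 ± 0.07 (adjusted p = 0.0479). Ccne1 is named because it is the higher gene of this list, a choice made after its value was seen. Of 14 APC/C subunits 2 were lower and 0 higher, Anapc5 (-0.48 ± 0.05, adjusted p = 2.41e-05) and Anapc1 (-0.20 ± 0.06, adjusted p = 0.0227). The share of this list called lower was near that of all genes, and its median was -0.11.

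Of 17 transcriptional regulators of cell cycle genes 6 were lower and 0 higher, with a median of -0.13. Rbl1 (p107) had -0.54 ± 0.08 (adjusted p = 0.000177) and E2f8, a repressor of the E2F family, -0.49 ± 0.07 (adjusted p = 0.000136). Mybl2 (B-Myb) had -0.35 ± 0.07 (adjusted p = 0.00212), and Lin9, a MuvB subunit, did not pass (-0.17 ± 0.08, adjusted p = 0.101). Cdkn1a, the inhibitor p21 of cyclin-dependent kinases, was measured at 239.9, 372 and 291 CPM in control, 357, 582 and 432 CPM with DAC, 535, 792 and 454 CPM with SFN, and 784, 964 and 579 CPM with DAC+SFN. It was higher with each treatment, with log2 fold changes of 0.60 ± 0.11 with DAC (adjusted p = 0.0441), 0.96 ± 0.11 with SFN (adjusted p = 6.27e-05) and 1.36 ± 0.11 with DAC+SFN (adjusted p = 1.91e-06). Ccnd1, cyclin D1 of G1 phase, stood at 233, 452 and 273 CPM in control, 332, 759 and 392 CPM with DAC, 575, 1215 and 581 CPM with SFN, and 879.8, 1375 and 667 CPM with DAC+SFN. It was also higher with each treatment, by 0.60 ± 0.10 with DAC (adjusted p = 0.0344), 1.27 ± 0.10 with SFN (adjusted p = 4.36e-06) and 1.61 ± 0.10 with DAC+SFN (adjusted p = 2.55e-07) on the log2 scale. Cdkn1a and Ccnd1 belong to none of the counted lists and were picked by name, so no list share goes with them. All 3 comparisons share the control libraries. With DAC no gene at all was called without the replicate block, without replicate 2 in every group or without control replicate 1, so the DAC calls of Cdkn1a and Ccnd1 were lost in those settings.

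**Figure D5:**
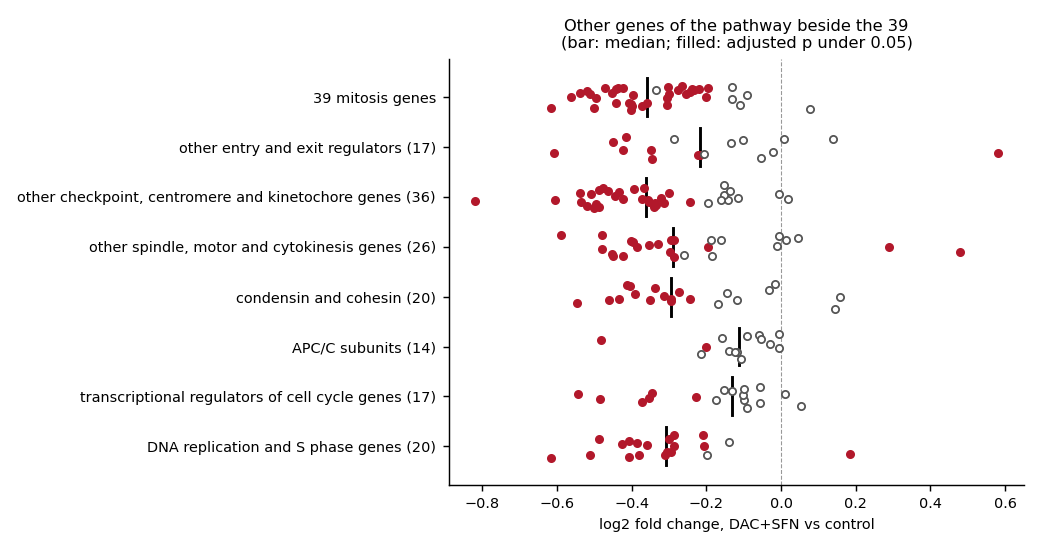
Log2 fold change of DAC+SFN against control (horizontal axis) for the 39 members and for 7 lists of other genes of the cell cycle (vertical axis, number of genes in brackets), with 1 point per gene, filled at an adjusted p under 0.05, and black bars at the medians. The medians run from -0.36 in the checkpoint, centromere and kinetochore list to -0.11 in the APC/C list.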

How the data were processed

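RNA of B16F10 cells was sequenced from 3 replicates each of control, DAC, SFN and DAC+SFN cells. Per the labels and the study's methods, the authors checked reads with FastQC 0.11.7, trimmed them with Trimmomatic 0.38 (bases under Q20), aligned them to mm10 with TopHat2 2.1.1 and deposited raw counts per gene from HTSeq. The kit was stranded. The annotation and the strand setting of the counting are not given in the sources used here.

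Genes were followed by symbol, and of 24421 genes the 11638 that reached 1 CPM in 3 or more libraries were tested with edgeR 4.0.16 in R 4.3.3 (TMM scaling, quasi-likelihood F test, all 12 libraries, group and replicate number as terms, Benjamini-Hochberg adjustment over all genes tested). Standard errors are the log2 fold change divided by the root of F. The block uses the replicate numbers of the labels, which name no shared day or batch, and the study's own edgeR test corrected for a batch it does not name. Libraries are numbered 1 to 4 in replicate 1, 5 to 8 in replicate 2 and 11 to 14 in replicate 3. The methods state that the treatment groups were harvested together. The pairing was also looked for in the data: all 18 same-number pairs across groups had deviations that correlated (r from 0.27 to 0.73, mean 0.54). The 36 pairs of different numbers had r from -0.60 to 0.28 (mean -0.27), so the 2 ranges met. Deviations from a group's own mean cancel out within the group. The negative mean therefore follows from the positive one and is no separate evidence. Fold changes used a prior count of 0.125 and within-replicate differences one of 2. The methods describe the replicates of the treatments as independent biological repeats. No 2 libraries of the same group agreed within sampling noise.

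In simulated counts for DAC+SFN against control (11572 genes), 46% of changes of 1.25-fold, 82% of 1.5-fold and 94% of 2-fold were recovered, with 9 false calls. At most 50 genes were changed at each size, whereas 3683 of 11638 were called in the data. The adjustment is stricter when fewer genes change, so these rates need not hold for the data. The members, lists and motifs were chosen with earlier results of these data known. Named in every library were the members with the largest, smallest and 6 most significant changes with DAC+SFN or SFN, the most abundant member and those not called. In the other comparisons members that passed were named, or else the 3 with the smallest p. Per pathway list the 2 genes with the smallest adjusted p were named, plus Cdkn1a, Ccnd1, Mybl2, Lin9, Rbl1 and Uhrf1. Ckap2 and Ccne1 were added after their values were seen. Alternatives were no replicate block, other scalings, filters and fits, DESeq2 1.42.0, only the groups compared, replicate 2 left out, and each library left out in turn. Promoters came from RefSeq.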

Additional observations from a re-analysis of the deposited data

How the results depend on the processing

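All medians of the members kept their sign under every alternative run. The 33 members lower with DAC+SFN than control became 20 without the replicate block, 20 with replicate 2 left out of all groups and 0 at a fold change over 2, and 26 to 35 when any 1 library was left out. The 2 called with SFN became 0 without the replicate block, 0 without replicate 2, 0 at a fold change over 2, 5 with no filter on low counts and 9 in a fit of only the groups compared, and 0 to 4 with 1 library left out. With DAC the 0 became 1 by DESeq2, 1 with no filter and 20 in a fit of only the groups compared, and the median ran from -0.22 (without DAC replicate 2) to -0.11 (without DAC replicate 3) around -0.17. Against DAC, the 13 became 0 without the replicate block, 4 without replicate 2, 0 at a fold change over 2 and 5 in a fit of only the groups compared, and 3 to 23 with 1 library left out. Against SFN, the 9 became 0 without the replicate block, 0 without replicate 2, 0 at a fold change over 2, 20 by DESeq2, 22 with no filter and 33 in a fit of only the groups compared, and 0 to 29 with 1 library left out. The count for the interaction stayed at 0. The replicate numbers pair the libraries, so fits without the block leave replicate variation in the error. Other causes were not tested. Of the single members' values with DAC+SFN against control, 568 kept their side of the threshold over the alternatives, 51 lost it and 5 passed it. Changes under 1.5-fold are near the limit of 3 libraries a group.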
